A study of Mus musculus with 40 samples.

Results

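The nuclear-encoded respiratory chain genes are the genes of the cell nucleus that code for subunits of the 5 complexes of mitochondrial oxidative phosphorylation. Members were the protein-coding mouse genes whose symbol begins with Nduf (assembly factors Ndufaf left out), Uqcr, Cox4 to Cox8 families or Atp5, together with Sdha, Sdhb, Sdhc, Sdhd and Cyc1. The rule used names and no measured value, so a member need not be a subunit of its complex. It found 86 of 45792 mouse gene rows. By name, 38 were of complex I, 4 of complex II, 9 of complex III, 18 of complex IV and 17 of complex V. They were measured by 3′ digital gene expression sequencing, which counts reads from the 3′ ends of transcripts, in mouse colon. Mice either received 2000000 sorted cells of Tritrichomonas musculis (T.mu), a flagellated protozoan that lives in the rodent gut, or received no protist (control), and were sampled 3, 14 or 48 days later. Each mouse group was studied as colonic epithelial cells and as total colonic tissue, giving 12 groups and 40 libraries, with 3 libraries a group at days 3 and 14 and 4 at day 48. The labels number the litter behind each library, and the same litter numbers occur in both arms. They do not give the strain, age or sex of the mice. The design text speaks of 3 different mice at each time, while the labels give 4 litters at day 48, and neither says whether 1 animal gave both preparations, so p-values measure the spread between these libraries.

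The respiratory chain sits in the inner mitochondrial membrane. Complex I oxidises NADH and complex II oxidises succinate, and both pass electrons through ubiquinone to complex III, then through cytochrome c to complex IV, which reduces oxygen. The resulting proton gradient drives complex V, the ATP synthase. Complex II is made of nuclear-encoded subunits alone, while the other complexes join nuclear-encoded subunits with a few encoded by mitochondrial DNA. In complexes I, III and V a small set of proteins carries the redox centres or the catalytic sites, and the many small accessory subunits stabilise and assemble the enzyme. In complex IV the catalytic core is encoded by mitochondrial DNA, so its nuclear-encoded subunits surround that core. Colonocytes are known for their use of bacterial butyrate as a mitochondrial fuel.

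Library totals ran from 170291 to 2866306 counts in epithelium (median 1166080) and from 220717 to 6756616 in total tissue (median 2158349). Under 400000 counts lay 3 epithelial libraries, all of day 3, and 4 tissue libraries, 2 of them day 14 controls and 2 day 48 T.mu libraries. The 10 epithelial markers, Epcam and Cdh1 among them, had counts in 20 of 20 libraries of both preparations. The summed level of 8 smooth muscle markers was 25.16 to 80.55 CPM (counts scaled to a common library size) in epithelium against 2760 to 6342 CPM in tissue. The epithelial markers themselves were lower in the epithelial preparation, with a median sum of 9686 CPM against 14750 CPM, as were 8 surface colonocyte markers (15140 against 63440 CPM). Levels are CPM of the filtered library after TMM scaling, a correction for differences in composition. Of the 86 members, 79 passed the filter on low counts in epithelium, among 10119 genes tested, and 81 in tissue, among 11696. In total the members took 2.54 to 4.00% of the counts of an epithelial library and 1.84 to 3.15% of those of a tissue library.

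The sequences upstream of the annotated starts of Uqcrc1, Cox7c, Uqcr11 and Atp5e are shown so that a reader can see what these 4 promoters hold. They are RefSeq sequence of build GRCm38.p6, written 5′ to 3′ on the strand of the gene, and hold only bases upstream of both the RefSeq start and the gene's start in GENCODE M21. Capitals mark the core of the binding motif of the ETS family of transcription factors (CCGGAAG or its reverse complement CTTCCGG). Uqcrc1, a core protein of complex III, has the window chr9:108936398-108936632 (+ strand). Cox7c, a small subunit of complex IV, has chr13:86046905-86047045 (− strand). Uqcr11, a small subunit of complex III, has chr10:80406831-80407071 (− strand). Atp5e, the epsilon subunit of the ATP synthase, has chr2:174464106-174464351 (− strand).
Uqcrc1: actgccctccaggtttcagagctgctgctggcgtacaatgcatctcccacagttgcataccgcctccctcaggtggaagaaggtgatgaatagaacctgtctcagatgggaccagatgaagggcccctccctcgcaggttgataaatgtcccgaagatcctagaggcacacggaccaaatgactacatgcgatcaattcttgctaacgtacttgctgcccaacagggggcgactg
Cox7c: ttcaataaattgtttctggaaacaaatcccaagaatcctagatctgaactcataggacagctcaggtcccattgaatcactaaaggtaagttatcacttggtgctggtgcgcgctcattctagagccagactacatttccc
Uqcr11: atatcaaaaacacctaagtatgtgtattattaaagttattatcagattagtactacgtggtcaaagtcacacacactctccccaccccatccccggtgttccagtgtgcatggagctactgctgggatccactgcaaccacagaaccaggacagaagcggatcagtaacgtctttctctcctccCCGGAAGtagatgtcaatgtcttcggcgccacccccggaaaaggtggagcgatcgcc
Atp5e: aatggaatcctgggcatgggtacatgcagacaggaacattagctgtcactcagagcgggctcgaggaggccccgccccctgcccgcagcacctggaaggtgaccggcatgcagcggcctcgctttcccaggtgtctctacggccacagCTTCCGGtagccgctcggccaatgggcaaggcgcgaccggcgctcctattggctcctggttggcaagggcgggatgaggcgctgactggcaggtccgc
The ETS core lay 57 bases upstream of the start in Uqcr11 and 98 bases upstream in Atp5e, and these letters did not occur in the windows printed for Uqcrc1 and Cox7c. Over the 250 bases upstream of each start, 67 of the 86 members had a RefSeq promoter. Of these, 11 (16.4%) held the ETS core on either strand, against 6.91% of all 32851 promoters. Atp5d and Ndufa7, which fell in tissue at day 48 with smaller adjusted p than Atp5e, are not among these 11. Their sequences are not shown. The core GCGCATGC of nuclear respiratory factor 1 (NRF1), a regulator of mitochondrial genes, was in 8 members (11.9%), against 2.26% of all promoters. The motif of the factor YY1 was searched for as well and was in 0 of the 67 members, against 0.301% of all promoters. The comparison was with all promoters, and whether these shares are particular to the members was not tested. A match is a stretch of letters and no evidence that a factor binds there.

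In epithelium 1 member passed at day 3, 1 at day 14 and 0 at day 48, and the members' median lay farthest from that of all genes at day 14. At day 3 the members had a median log2 fold change of 0.03 (all genes tested 0.06), with 41 of 79 positive; with RLE in place of TMM scaling it was −0.02, with 38 positive. At day 14 the median was −0.37 (all genes 0.01), and 56 of 79 were negative. By day 48 it was −0.02 (all genes 0.02), with 36 positive and 43 negative. In bulk samples fewer cells of a type and less RNA per cell cannot be told apart. In edgeR's quasi-likelihood test with Benjamini-Hochberg adjustment over all genes, 1 member rose at day 3 (Uqcrc1), where 0.326% of all genes were called higher and 0.0296% lower. At day 14, 1 member fell (Cox7c), where 0.336% of all genes were called higher and 0.168% lower. At day 48 no member was called by edgeR, DESeq2 or limma voom, where edgeR called 0.277% of all genes higher and 0.0198% lower. At an unadjusted p under 0.05, 28 members were lower and 2 higher at day 14, where 506 of 10119 genes were lower and 5.34% higher by that rule. The same rule gave 7 higher and 0 lower at day 3 (7.33% and 3.71% of all genes) and 4 higher and 0 lower at day 48 (2.60% and 1.97%).

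**Figure D1:**
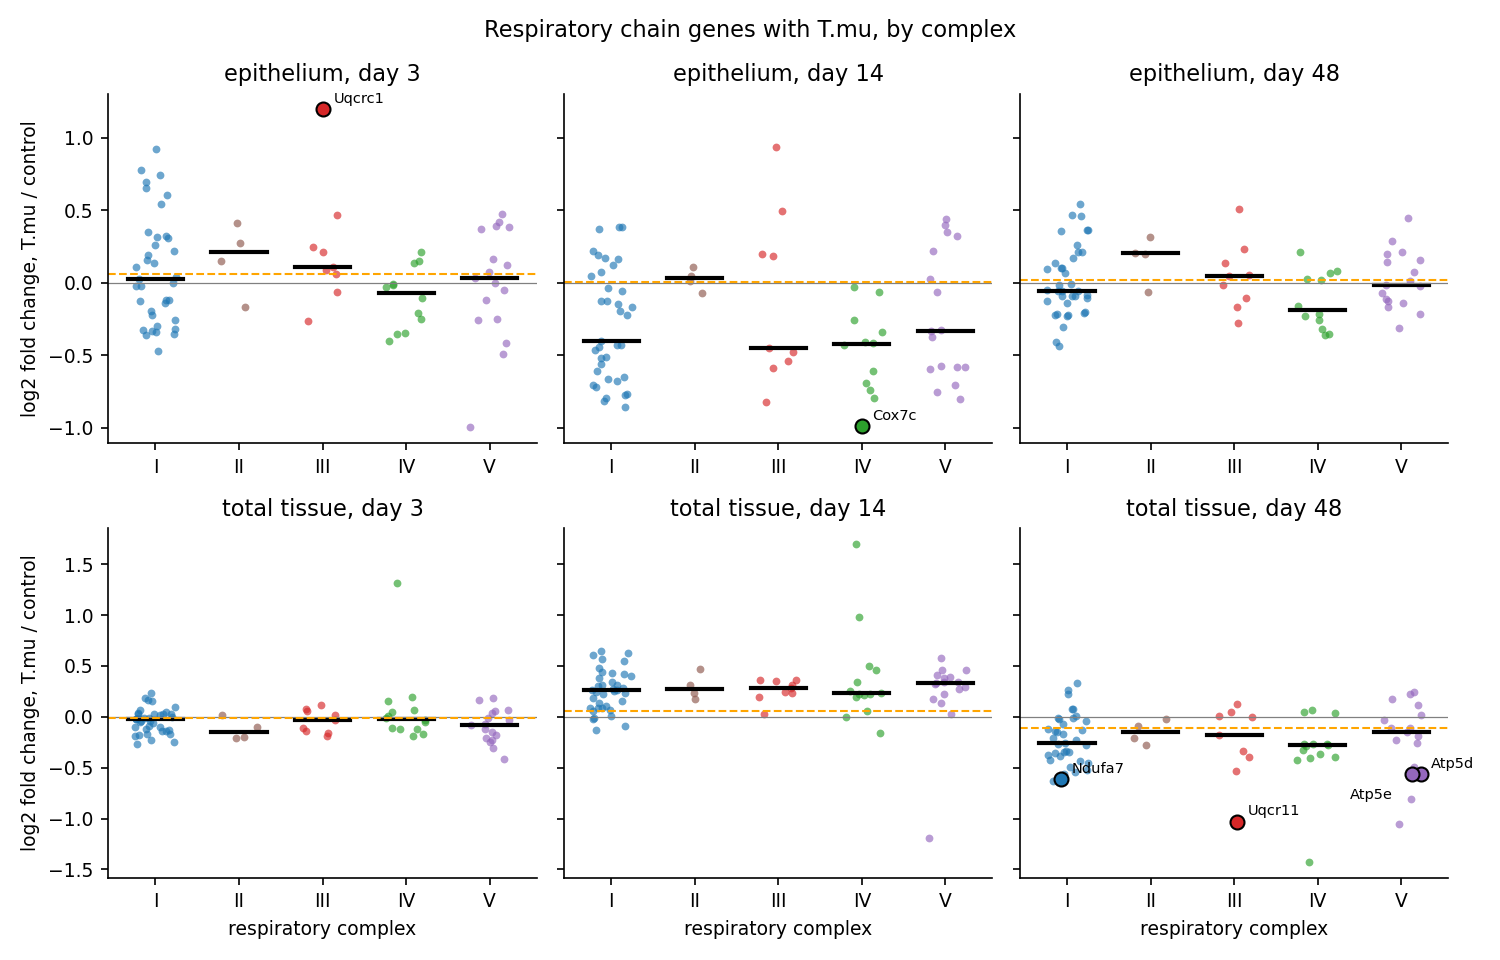
Log2 fold change of T.mu over control for each tested member (points), by complex (x axis), in 6 panels for preparation and day. Black bars are the median of a complex, the dashed orange line is the median of all genes tested, and outlined, named points have an adjusted p under 0.05. At day 14 the medians of complexes I, III, IV and V lie at −0.40, −0.45, −0.42 and −0.33 in epithelium, and those of all complexes lie above 0 in total tissue.

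Uqcrc1, which encodes a core protein of complex III, had the highest fold change of the members in epithelium at days 3 and 14 and in the mean over days. Its level at day 3 was 156.4, 396.3 and 255.2 CPM in the controls and 525.1, 512.0 and 838.2 CPM with T.mu. At day 14 it was 355.0, 253.9 and 420.4 CPM in the controls and 836.2, 547.8 and 591.3 CPM with T.mu. At day 48 it was 331.2, 409.2, 373.8 and 264.4 CPM in the controls and 695.7, 348.7, 598.8 and 317.5 CPM with T.mu. All T.mu libraries lay above all controls at days 3 and 14, whereas at day 48 libraries of litters 1 and 3 were high and those of litters 2 and 4 lay within the control range. Uqcrc1 rose at day 3 (2.29-fold, log2 fold change 1.20 ± 0.29 SE, adjusted p = 0.0424). At day 14 the log2 fold change was 0.94 ± 0.28 (adjusted p = 0.132), and at day 48 it was 0.51 ± 0.24 (adjusted p = 0.996). In the mean over the 3 days Uqcrc1 was 1.84-fold higher (log2 0.88 ± 0.16, adjusted p = 0.000202). With the litter as a block the day 14 difference also passed (0.94, adjusted p = 0.0335). The day 3 controls hold 2 of the shallow libraries and the day 3 T.mu group 1: without libraries under 400000 counts the day 3 value was 0.84 (adjusted p = 0.577), and the mean over days 0.77 (adjusted p = 0.0227). The day 3 call was also lost without control litter 1, without control litter 3 or without T.mu litter 3, with values from 0.95 to 1.66 over the 6 libraries left out. The 5 transcripts fixed as signs of RNA quality (mt-Rnr1, mt-Rnr2, Lars2, Malat1 and Neat1) summed to 272900 to 361700 CPM in the day 3 controls and 125800 to 204500 CPM with T.mu, and of 10 epithelial markers 5 were higher and 1 lower in the mean over days. Red blood cell markers summed to 10.63 to 59.63 CPM in the day 3 controls and 88.27 to 284.3 CPM with T.mu, with 1 of 4 tested passing (Hbb-bs, 2.35, adjusted p = 0.0129). Their part in the result was not tested.

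The same gene moved differently in total tissue. Uqcrc1 was at 604.3, 606.4 and 723.9 CPM in tissue controls of day 3 and at 526.2, 698.4 and 506.7 CPM with T.mu. At day 14 the values were 367.9, 486.7 and 575.5 CPM in controls and 659.6, 545.6 and 546.8 CPM with T.mu, and at day 48 they were 493.5, 478.0, 455.2 and 472.6 CPM against 352.6, 416.8, 380.0 and 348.2 CPM. The T.mu libraries overlapped the controls at days 3 and 14 and all lay below them at day 48. The log2 fold changes were −0.16, 0.28 and −0.34 (adjusted p = 0.999, 0.662 and 0.285), and the mean over days was −0.07 ± 0.09 (adjusted p = 0.880). The T.mu effect on Uqcrc1 was larger in epithelium than in tissue by 0.99 ± 0.20 on the log2 scale (adjusted p = 0.00517). Uqcrc1 was the 1 of 81 members for which this difference between preparations passed, where 0.608% of all genes were called higher and 0.144% lower. Without the shallow libraries the difference was 0.97 (adjusted p = 0.0557).

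**Figure D2:**
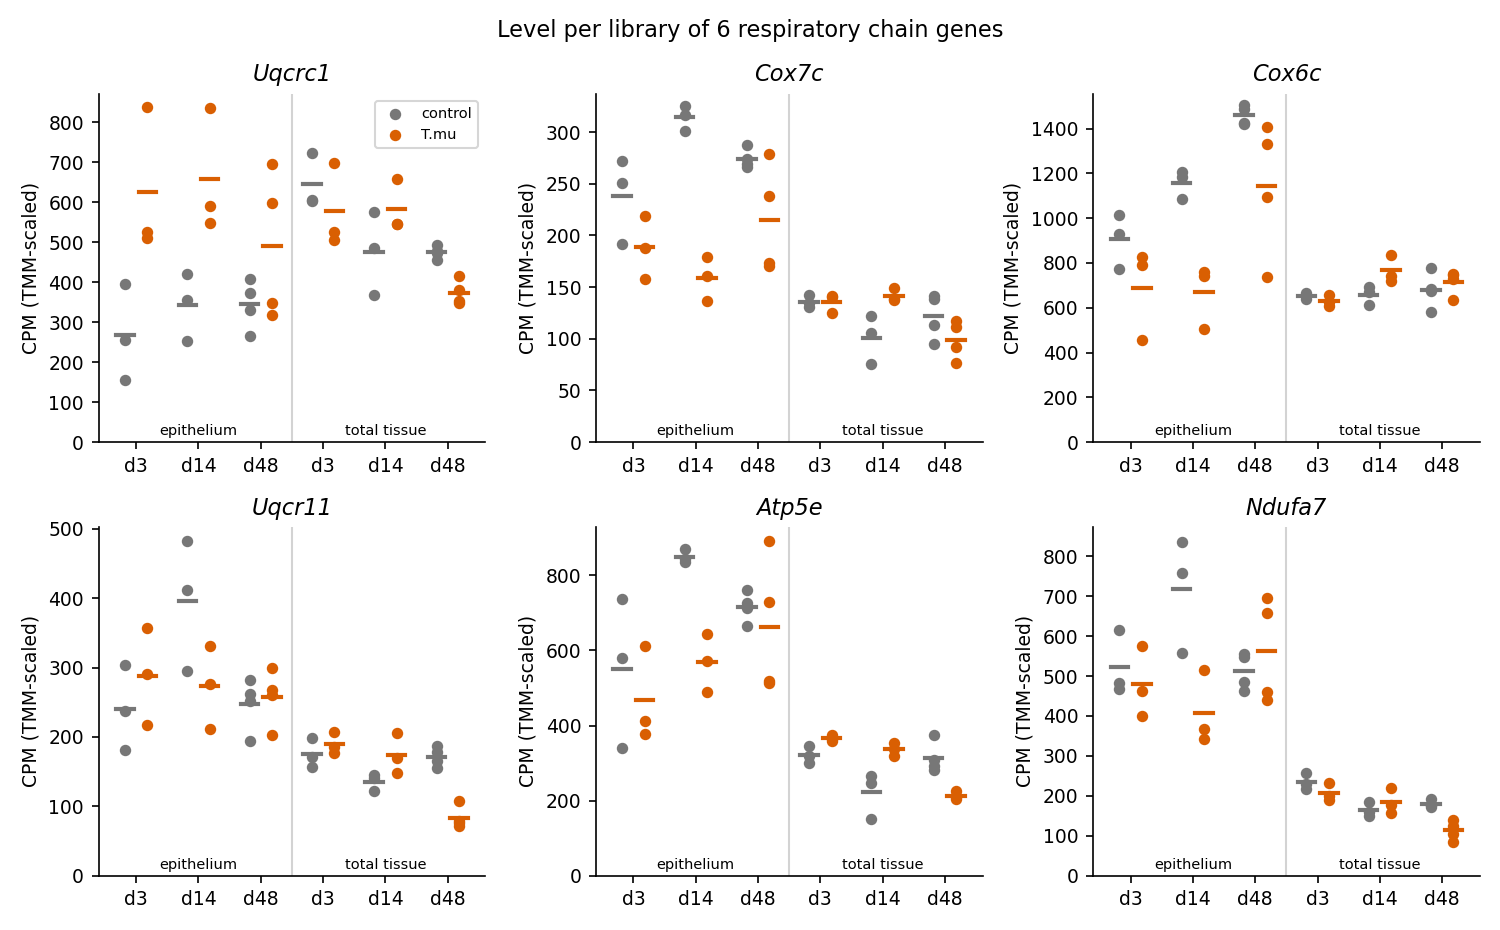
Level of 6 members in each library (points, CPM after TMM scaling, y axis from 0) by day after inoculation (x axis) in epithelium (left of the grey line) and total tissue (right), for control (grey) and T.mu (orange), with bars at the group mean. Uqcrc1 lies above all controls in epithelium at days 3 and 14, Cox7c lies below them in epithelium at day 14 (136.2 to 179.0 against 301.5 to 324.9 CPM), and Uqcr11 lies below them in tissue at day 48 (71.05 to 108.3 against 155.4 to 186.5 CPM).

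Of the 12 tested members named for complex IV, Cox7c passed at day 14 in epithelium, and Cox7c and Cox6c in the mean over days. At day 14 all 12 had a negative log2 fold change, from −0.99 for Cox7c to −0.03 for Cox5a, with a median of −0.42. Cox7c was at 316.4, 301.5 and 324.9 CPM in the controls of day 14 and at 136.2, 179.0 and 160.9 CPM with T.mu, so the groups did not overlap. It fell 1.98-fold (log2 −0.99 ± 0.23, adjusted p = 0.0198), a call that was lost when any 1 of the 6 libraries was left out (−1.09 to −0.87, adjusted p up to 0.246). At day 3 Cox7c was at 272.2, 250.8 and 191.4 CPM in controls and at 219.3, 188.3 and 157.6 CPM with T.mu, and at day 48 it was at 287.8, 266.6, 269.2 and 273.9 CPM against 173.1, 238.4, 170.9 and 278.8 CPM. The groups overlapped at both days, with a log2 fold change of −0.36 at each. In the mean over days Cox7c fell by 0.57 ± 0.13 on the log2 scale (adjusted p = 0.0066), and by 0.36 without day 14 (adjusted p = 0.319). Cox7c has processed pseudogenes, and how reads shared with them were counted is not given in the sources used here.

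Cox6c, another small membrane subunit of complex IV, was at 1183, 1207 and 1087 CPM in day 14 controls and at 503.0, 743.7 and 759.3 CPM with T.mu. At day 48 it was at 1427, 1419, 1487 and 1504 CPM in controls and at 735.2, 1333, 1096 and 1408 CPM with T.mu. The T.mu libraries lay below every control at both days, and overlapped at day 3 (1014, 931.2 and 770.9 CPM against 789.4, 826.8 and 454.0 CPM). Cox6c fell by 0.52 ± 0.13 on the log2 scale in the mean over days (adjusted p = 0.0172), a call lost without control litter 2 of day 14, T.mu litter 1 of day 14 or T.mu litter 3 of day 3, while its day 14 value was −0.79 (adjusted p = 0.146). Cox4i1, the subunit at which ATP regulates the enzyme, was at 2721 to 3272 CPM in day 14 controls and 2384 to 2700 CPM with T.mu (−0.25, adjusted p = 0.752). Cox5a, a subunit on the matrix side, overlapped between the groups (331.9 to 341.7 CPM against 244.5 to 393.6 CPM), and Cox8a, an integral membrane subunit, had a log2 fold change of −0.43 (adjusted p = 0.518).

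Complex I had a median log2 fold change of −0.40 in epithelium at day 14, with 27 of its 37 tested members negative, from −0.86 for Ndufa2, an accessory subunit, to 0.38 for Ndufv1, the subunit that binds NADH and the flavin. In the mean over days its median was −0.13, with 24 of 37 negative. Ndufv1 and the iron-sulfur subunits Ndufs3, Ndufs7 and Ndufs8, named after their values had been seen, had log2 fold changes of 0.50, 0.51, 0.44 and 0.38 in that mean (adjusted p = 0.129, 0.117, 0.0632 and 0.112 in edgeR). Ndufs7 passed with DESeq2 (0.42, adjusted p = 0.0339) and with counts halved (0.42, adjusted p = 0.0469).

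Among the accessory subunits of complex I, Ndufa1 and Ndufa4 fell in the mean over days. Ndufa1, a small membrane-arm subunit, was at 394.9, 406.1 and 332.7 CPM in day 14 controls and at 192.6, 235.9 and 237.2 CPM with T.mu. Ndufa4, which was named as a complex I subunit and is also regarded as part of complex IV, was at 745.0, 711.4 and 623.7 CPM against 292.0, 461.7 and 463.7 CPM. Neither gene's groups overlapped at day 14. At day 48 Ndufa1 was at 357.2, 348.9, 367.8 and 310.8 CPM in controls and at 203.4, 298.3, 229.7 and 317.5 CPM with T.mu, and Ndufa4 at 648.3, 774.0, 680.3 and 792.2 CPM against 349.5, 532.9, 457.3 and 803.7 CPM, with litter 4 within or above the control range in both. The mean over days was −0.50 ± 0.14 for Ndufa1 (adjusted p = 0.0239) and −0.51 ± 0.14 for Ndufa4 (adjusted p = 0.0290). Each of the 2 calls held in 12 of the 20 fits without 1 library, and both were lost without day 14 (−0.37 and −0.39, adjusted p = 0.323 and 0.326). Both were also lost without day 48. The Ndufa1 call was lost without the filter on low counts too. For Ndufa4 the same held without day 3 and without libraries under 400000 counts.

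Complexes III and V divided by the role of the subunit, a textbook split that was made after the values had been seen. In complex III the 4 core and catalytic proteins (Uqcrc1, its partner Uqcrc2, the Rieske iron-sulfur protein Uqcrfs1 and cytochrome c1, Cyc1) were all positive in epithelium at day 14, from 0.18 to 0.94, and the 5 small subunits were all negative, from −0.82 for Uqcrh, the hinge protein, to −0.45 for Uqcrq. Cyc1 lay at 276.7 to 438.7 CPM in controls and 460.2 to 577.1 CPM with T.mu (0.50, adjusted p = 0.468), and Uqcrh at 1412 to 1691 CPM against 678.5 to 1012 CPM (−0.82, adjusted p = 0.172). In complex V, 4 of the 5 subunits of the F1 head were positive (median 0.22) and 10 of the 12 others were negative (median −0.47). Here F1 head means the whole F1 part, with alpha and beta of the head and gamma, delta and epsilon of the central stalk. Atp5a1, the alpha subunit, was at 703.7 to 1059 CPM in controls and 1078 to 1237 CPM with T.mu (0.40, adjusted p = 0.553). Atp5b, the catalytic beta subunit, was at 1072 to 1410 CPM against 1350 to 1752 CPM (0.22, adjusted p = 0.798). The gamma subunit Atp5c1 had a value of 0.03, and the epsilon subunit Atp5e was the negative one of the F1 head (−0.58, adjusted p = 0.356). Complex II had a median of 0.03 at day 14, with Sdha at 167.4 to 241.5 CPM in controls and 201.4 to 219.7 CPM with T.mu, and Sdhb at a log2 fold change of 0.05.

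Counted by library, 36 of the 79 members lay below every control at day 14 in epithelium, where 8.94% of all genes did, and 5 lay above every control (Uqcrc1, Cyc1, Atp5a1, Atp5d and Ndufa8), where 9.76% of all genes did. The 36 were 17 of complex I, 4 of complex III, 8 of complex IV and 7 of complex V. At day 3, 4 lay above and 1 below (7.60% and 4.60% of all genes), and at day 48, 4 above and 1 below (2.09% and 1.94%). In the mean over days 1 member rose and 4 fell, where 2.46% of all genes were called higher and 0.929% lower (3.39% in either direction). The cytoplasmic ribosomal protein genes called in that mean were all lower, among them Rpl39 (−0.68, adjusted p = 0.00361) and Rpl37a (−0.59, adjusted p = 0.012). Also lower were mt-Rnr2 (−0.78, adjusted p = 0.014), Mrpl52 (−0.53, adjusted p = 0.0305) and Tomm7 (−0.45, adjusted p = 0.0478). Their part in the members' values was not tested. With the litter block the mean called 8 members, 1 higher and 7 lower, adding Uqcrh (−0.46, adjusted p = 0.0230), Cox7a2 (−0.43, adjusted p = 0.0383) and Cox7b (−0.45, adjusted p = 0.0303). The block added Uqcrh at day 14 as well (−0.84, adjusted p = 0.0499). No member passed a test of whether the T.mu effect differed between the 3 days in epithelium (0.00% of all genes). By edgeR, DESeq2 and limma voom 0 members were called. In edgeR 2 members (2.53%) had an unadjusted p under 0.05, against 4.14% of all genes.

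The summed levels per complex gave the size of the shift. At day 14 the epithelial sum over all members was 39450 ± 2610 CPM in controls and 31460 ± 3320 CPM with T.mu (SD, n = 3 each). Complex I was at 11020 ± 940 against 8368 ± 1170 CPM, and complex IV at 11440 ± 960 against 8260 ± 905 CPM. Complex III was at 5131 ± 287 against 4356 ± 329 CPM, and complex V at 10590 ± 663 against 9174 ± 926 CPM. Complex II was at 1269 ± 98.8 against 1302 ± 74.7 CPM, within the spread of the libraries. As a share of all counts, without TMM scaling, the members took 4.00, 3.96 and 3.74% in controls and 2.93, 3.52 and 4.00% with T.mu, which overlap. Complex V by that measure was at 1.09, 1.01 and 1.04% against 0.861, 1.02 and 1.16%, while complex IV was at 1.12, 1.21 and 1.06% against 0.761, 0.935 and 1.05%, without overlap. The controls themselves varied: their sum over all members was 30780 ± 6780 CPM at day 3 and 33200 ± 2320 CPM at day 48, and the T.mu libraries of those days lay at 31990 ± 3270 and 32090 ± 3650 CPM.

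**Figure D3:**
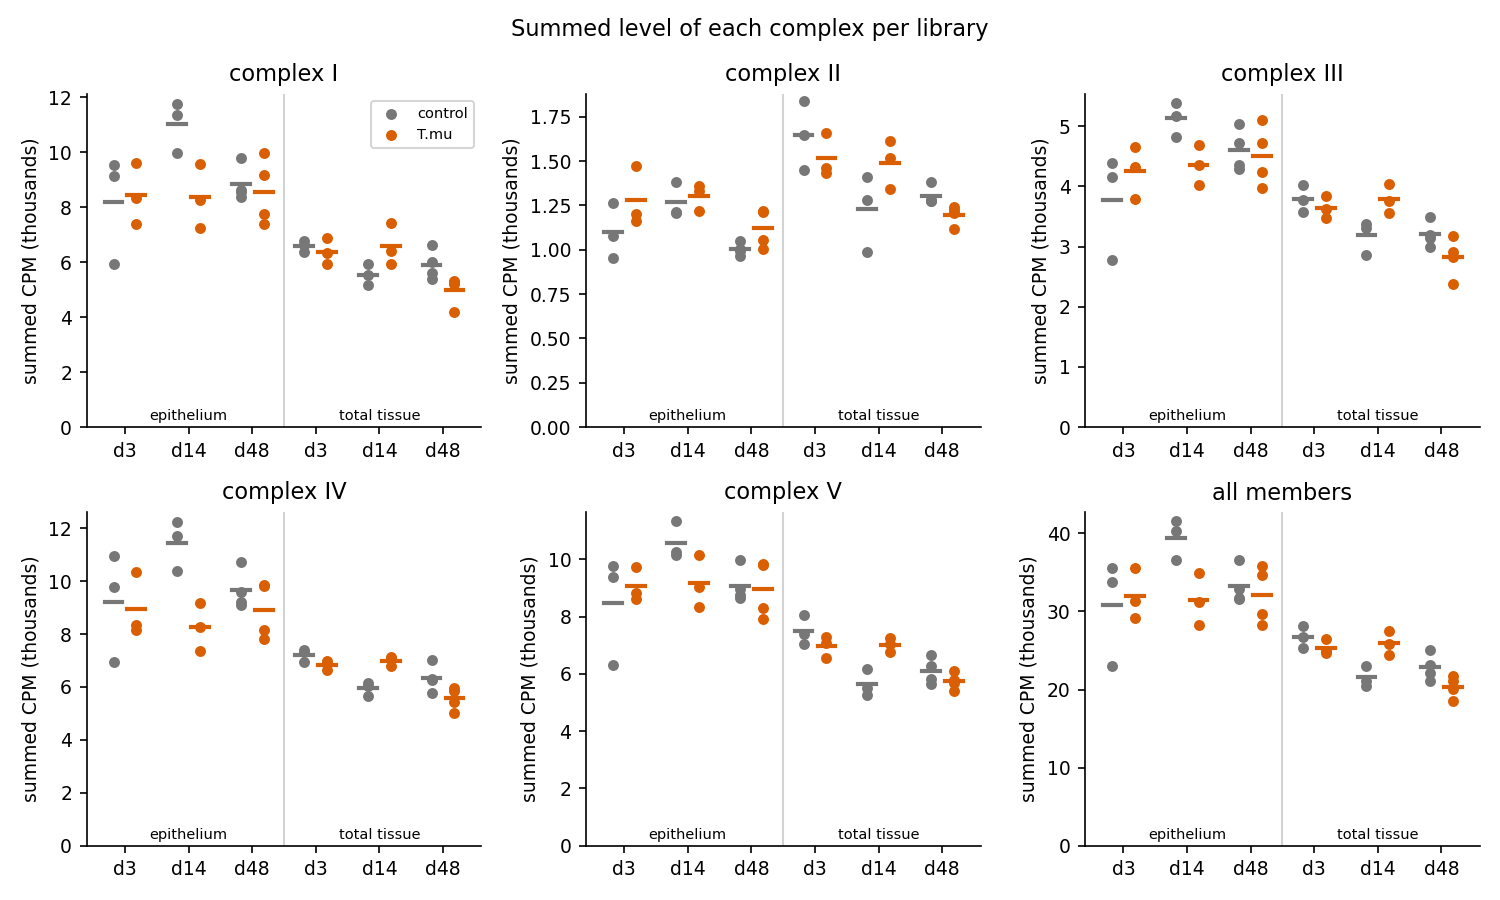
Summed level of the members of each complex, and of all members, in each library (points, in units of 1000 CPM, y axis from 0) by day (x axis), for control (grey) and T.mu (orange) in epithelium (left of the grey line) and total tissue (right), with bars at the group mean. In epithelium at day 14 complex IV falls from a mean of 11440 to 8260 CPM while complex II stays between 1209 and 1383 CPM in all 6 libraries.

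Other transcripts moved with the epithelial shift of day 14. Cytoplasmic ribosomal proteins, with 79 genes tested, stood at a median of −0.62, 6 of them passing, and their sum was 35270 to 38400 CPM in controls and 24250 to 25500 CPM with T.mu. The 7 tested mitochondrially encoded subunits had a median of −0.44, none passing, with a sum of 44680 ± 3240 CPM in controls and 32020 ± 6960 CPM with T.mu. All 5 RNA quality transcripts had negative values, none passing, with a median of −1.11 and a summed level of 216400 to 283500 CPM in controls and 117800 to 131200 CPM with T.mu. Goblet cell markers (8 genes) had a median of −0.45 and a sum of 38520 to 52380 CPM against 29700 to 33360 CPM, and 1 of them passed (Tff3, lower). Epithelial markers (10 genes) had a median of 0.44 and a sum of 8800 to 11620 CPM against 11730 to 15730 CPM, with 1 passing (Phgr1, lower). Surface colonocyte markers (8 genes) had a median of −0.21, none passing, and a sum of 13730 to 15830 CPM against 9827 to 12740 CPM. The part of these in the members' values was not tested.

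Transcript length separated the members too. The tested members are short, with a median transcript of 908 bases in epithelium against 3197 for all genes tested, and a median GC content of 51.0% against 49.5%. At day 14 in epithelium the 44 members under 1000 bases had a median log2 fold change of −0.55 and the 35 longer members 0.03. For all 742 short genes tested the median was −0.37 and the longer genes 0.04. Across the 79 members Spearman's rho of the fold change with length was 0.605 and with GC content 0.200, while over all genes rho was −0.0785 with length and 0.325 with GC content. Genes are not independent replicates, and these values are descriptions. The core and catalytic proteins of complex III have a median length of 1586.5 bases against 535 for the others, and the F1 head 1735 against 770, so role and length cannot be told apart in these complexes.

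With the litter block and a correction of each library for GC content and length, the median of the members at day 14 was −0.10, with 51 of 79 negative. By complex it was −0.08 for I, −0.03 for II, 0.06 for III, −0.26 for IV and −0.06 for V. Cox7c was then at −0.39 (adjusted p = 0.596), and 2 other members passed as lower, Ndufv3 (−0.98, adjusted p = 0.00834) and Ndufa13 (−0.68, adjusted p = 0.0489). In the mean over days Uqcrc1 was at 0.60 (adjusted p = 2.61e-05) under that correction and at 0.87 at day 3 (adjusted p = 0.0103). Its difference between the preparations was 0.66 (adjusted p = 0.0232), with the correction and a block for day, inoculum and litter number together. Cox7c, Cox6c, Ndufa1 and Ndufa4 lost their calls in the mean over days, at −0.12, −0.27, −0.13 and −0.11 (adjusted p = 0.720, 0.122, 0.655 and 0.695).

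**Figure D4:**
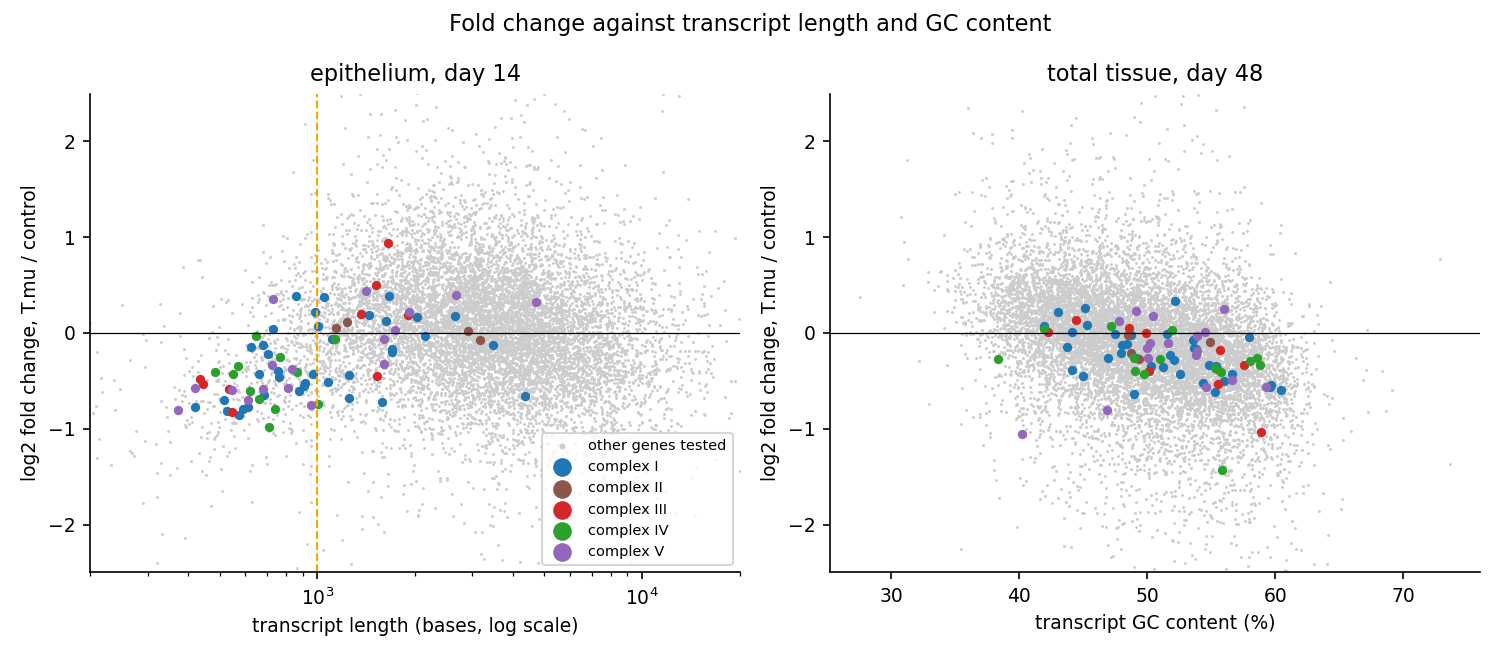
Left, log2 fold change of T.mu over control at day 14 in epithelium against transcript length (bases, log axis), with a dashed line at 1000 bases. Right, the same for total tissue at day 48 against GC content (%); coloured points are members by complex, grey points the other genes tested, and genes beyond the axes are not shown. Members under 1000 bases lie mostly below 0 on the left (median −0.55), and members fall with GC content on the right (rho −0.437).

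In total tissue 0 members passed at days 3 and 14 and 4 fell at day 48, with members' medians above that of all genes at day 14 and below it at day 48. At day 3 the median log2 fold change was −0.04 (all genes −0.01), with 52 of 81 negative, or 39 of 81 with RLE in place of TMM scaling. At day 14 it was 0.28 (all genes 0.06), and 74 of 81 members were positive. At day 48 it was −0.26 (all genes −0.11), and 63 of 81 were negative; with the litter block and a correction for GC content and length it was −0.13, where all genes had −0.16. The mean over days was 0.01 (all genes −0.03). Of the members, 27 lay above every control at day 14 and 0 below, where 8.77% and 4.67% of all genes did, and 0 lay above and 18 below at day 48 (2.71% and 6.72% of all genes). At day 3 these counts were 2 and 6 (6.84% and 7.61%).

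At day 14 no member passed in tissue by edgeR, DESeq2 or limma voom, where edgeR called 0.821% of all genes higher and 0.145% lower. At an unadjusted p under 0.05, 16 members were higher and 0 lower (5.99% and 3.24% of all genes). The medians were 0.26, 0.27, 0.28, 0.23 and 0.33 for complexes I to V. Cox7c, low in epithelium on that day, was at 121.7, 75.53 and 105.8 CPM in tissue controls and 137.2, 138.6 and 149.5 CPM with T.mu (0.46, adjusted p = 0.510). Atp5e was at 266.5, 151.1 and 247.7 CPM in controls and 337.1, 354.2 and 319.1 CPM with T.mu (0.58 ± 0.18, adjusted p = 0.147). Cox7a1, the heart and muscle form of the complex IV subunit 7a, was at 5.793, 33.57 and 53.71 CPM in controls, from 2, 8 and 98 counts, and at 86.78, 52.31 and 84.80 CPM with T.mu; its adjusted p was 0.145, and 0.0280 with the litter block (1.28), which makes it the 1 member called by that fit. The sum over all members was 21560 ± 1320 CPM in controls and 25900 ± 1510 CPM with T.mu (SD, n = 3 each). As a share of all counts, without TMM scaling, it was 2.01, 2.28 and 2.47% in controls and 3.15, 2.36 and 2.35% with T.mu, so that litter 1 alone lay above the controls. The controls of that day include 2 of the shallow libraries, and without these the median was 0.18. Surface colonocyte markers moved with it, at 53030 to 59300 CPM in controls and 70120 to 79290 CPM with T.mu summed over 8 genes, of which 1 passed (Car4, higher), and 10 epithelial markers summed to 11660 to 14340 CPM against 14780 to 17000 CPM, with 1 passing (Krt8, higher). The RNA quality transcripts summed to 101200 to 138100 CPM against 57520 to 100400 CPM; the part of these in the result was not tested.

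At day 48 in tissue 4 members fell and 0 rose, where 0.804% of all genes were called lower and 1.80% in either direction. Uqcr11 had the smallest adjusted p. It was at 186.5, 178.0, 166.0 and 155.4 CPM in the controls and at 78.36, 108.3, 71.05 and 76.44 CPM with T.mu, with no overlap, and fell 2.04-fold (log2 −1.03 ± 0.18, adjusted p = 0.000329). At day 14 Uqcr11 was at 144.8, 121.7 and 140.3 CPM in controls and 206.4, 147.5 and 169.6 CPM with T.mu (0.36 ± 0.21, adjusted p = 0.642), and at day 3 the groups overlapped at 157.0, 198.1 and 171.0 against 186.0, 177.5 and 206.9 CPM. Its T.mu effect differed between the days (adjusted p = 0.0175), the 1 member of 81 to do so, where 0.0684% of all genes did. This call was lost without libraries under 400000 counts and with the litter block and the correction for GC content and length. At an unadjusted p, 25 members (30.9%) differed between the days in tissue, against 9.75% of all genes. With the litter block 2 members differed, Uqcr11 and Atp5e (adjusted p = 0.0175).

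The other 3 members that fell at day 48 were 2 subunits of the F1 head and 1 of complex I. Atp5d, the delta subunit, was at 422.1, 445.2, 420.3 and 408.8 CPM in controls and 195.9, 338.1, 298.6 and 305.7 CPM with T.mu (−0.57 ± 0.16, adjusted p = 0.0396). Atp5e was at 308.4, 280.7, 374.4 and 293.5 CPM against 208.9, 203.5, 226.7 and 212.3 CPM (−0.56 ± 0.16, adjusted p = 0.0467). Ndufa7, an accessory subunit of complex I, was at 177.6, 171.8, 192.3 and 176.6 CPM against 104.5, 124.7, 139.7 and 84.93 CPM (−0.62 ± 0.17, adjusted p = 0.0463). None of the 3 overlapped its controls. With the litter block Atp5e had an adjusted p of 0.0547, and Ndufa13, also an accessory subunit of complex I, passed (−0.64, adjusted p = 0.0374). Medians of complexes I to V were −0.26, −0.15, −0.18, −0.28 and −0.15, and the sum over all members was 22850 ± 1710 CPM in controls and 20340 ± 1390 CPM with T.mu (SD, n = 4 each).

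The day 48 tissue groups differed in other measures as well. Their controls held 2223447 to 6756616 counts and the T.mu libraries 236155 to 1355659. The 8 adipocyte markers summed to 791.6 to 3569 CPM in controls and 122.9 to 301.5 CPM with T.mu, and 5 of the 7 tested fell (median −3.04). Surface colonocyte markers summed to 45210 to 58430 CPM in controls and 60150 to 66980 CPM with T.mu (Krt20 passed as higher), the plasma cell gene Jchain was higher (0.90, adjusted p = 0.00349), and the epithelial markers Phgr1 and Cldn3 were lower. Smooth muscle markers summed to 4677 to 6342 CPM against 2760 to 5625 CPM, with 0 of 8 passing. For cytoplasmic ribosomal proteins 5 of 79 genes fell, at a median of −0.41, and the RNA quality transcripts a summed level of 84150 to 110900 CPM against 123000 to 181200 CPM. Across the 81 members rho of the fold change was −0.437 with GC content and 0.222 with length (−0.377 with GC content over all genes). The part of these in the result was not tested. Each of Atp5d and Ndufa7 passed in 1 of 8 fits without 1 library, Atp5e in 0 of 8 and Uqcr11 in 8 of 8. Without the 2 shallow T.mu libraries Uqcr11 remained lower (adjusted p = 0.00568), while Atp5d, Atp5e and Ndufa7 were at −0.46, −0.58 and −0.48 (adjusted p = 0.207, 0.101 and 0.275). With the litter block and the correction for GC content and length Uqcr11 was at −0.57 (adjusted p = 0.163), and Atp5g1, a c-ring subunit of complex V, was the 1 member called (−0.98, adjusted p = 0.0276).

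At day 3 in tissue no member was called by edgeR, DESeq2 or limma voom, and 0 had an unadjusted p under 0.05, where 3.46% of all genes were higher and 1.72% lower by that rule; at the adjusted threshold 0.462% of all genes were higher and 0.00855% lower (0.470% in either direction). The mean over days called 0 members with the same 3 tools, with 2 at an unadjusted p under 0.05 (5.47% of all genes higher and 5.43% lower) and 1.50% of all genes called higher and 0.410% lower (1.91% in either direction). Its ends were Atp5g2, Atp5s and Ndufa8 at −0.70, −0.34 and −0.22, and Cox6b2, Cox7a1 and Ndufc2 at 0.48, 0.27 and 0.26.

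The difference of the T.mu effect between preparations had a median of −0.06 over the 81 members (all genes 0.09), with 33 positive and 48 negative. The core and catalytic proteins of complex III stood at 0.24 and the small ones at −0.10, and the F1 head at 0.29 against −0.19 for the rest of complex V. Cox6c and Cox7c were at −0.56 and −0.60 (adjusted p = 0.0614 and 0.0718). With RLE scaling, which moved the median of all genes to −0.01, both passed (−0.66 and −0.69, adjusted p = 0.0200 and 0.0248).

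Control epithelium and control tissue were compared for the levels without T.mu. Of 81 members 53 were higher and 8 lower in epithelium, where 23.1% of all genes were called higher and 29.7% lower, and the median was 0.64 (all genes −0.07). By complex the medians were 0.59, −0.08, 0.64, 0.65 and 0.82 for I to V. The smallest adjusted p among the higher members belonged to Atp5k, a dimerisation subunit of the ATP synthase (4.74-fold, log2 2.24), Ndufc1 (4.33-fold, 2.12), Ndufa7 (3.27-fold, 1.71), Uqcrh (3.23-fold, 1.69) and Ndufb2 (1.88). The members that were lower included Sdha, the flavoprotein of complex II (2.15-fold, log2 −1.11, adjusted p = 7.19e-12), Ndufs1, the largest subunit of the complex I core (−0.89, adjusted p = 1.07e-07), Uqcrfs1 (−0.74, adjusted p = 2.71e-08), Ndufa8 (−0.67, adjusted p = 5.25e-05) and Uqcrc1 (−0.61, adjusted p = 0.000196). Uqcrc2 (−0.32, adjusted p = 0.0179), Atp5b (−0.26, adjusted p = 0.0361) and Cox8b were the other 3.

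Complexes III and V divided by role in this comparison too. All 4 core and catalytic proteins of complex III had negative values (median −0.47) and the 5 small subunits had positive ones (median 1.04). The F1 head had a median of 0.12 and the rest of complex V 0.99. Ndufb8, Sdhb, Cyc1, Ndufv1 and Atp5a1 did not pass (−0.00, 0.08, −0.07, −0.26 and −0.23), while Cox4i1, Cox8a, Atp5c1 and Cox5a were higher by 0.63, 0.58, 0.62 and 0.30. Short members (46 genes) had a median of 0.83 and long members 0.12, where all 871 short genes had 0.96 and longer genes −0.13. Of the cytoplasmic ribosomal protein genes, 77 of 79 were higher in epithelium (median 1.67). The preparations also differed in surface colonocyte markers (7 of 8 lower in control epithelium, median −1.70), goblet cell markers (8 of 8 higher, median 1.70, with a median sum over all libraries of 35200 against 9039 CPM) and RNA quality transcripts (4 of 5 higher, with a median share of counts of 24.8% against 9.91%). The part of these in the members' values was not tested. With RLE scaling the median of all genes was 0.18 and that of the members 0.89. With a block for day, inoculum and litter number together, and a correction for GC content and length, the members' median was −0.02 (all genes −0.06). By that fit 25 members were higher and 25 lower, and the share of all genes it called is not given. This block treats an epithelial and a tissue library of the same number as the same animal, which the labels do not state.

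**Figure D5:**
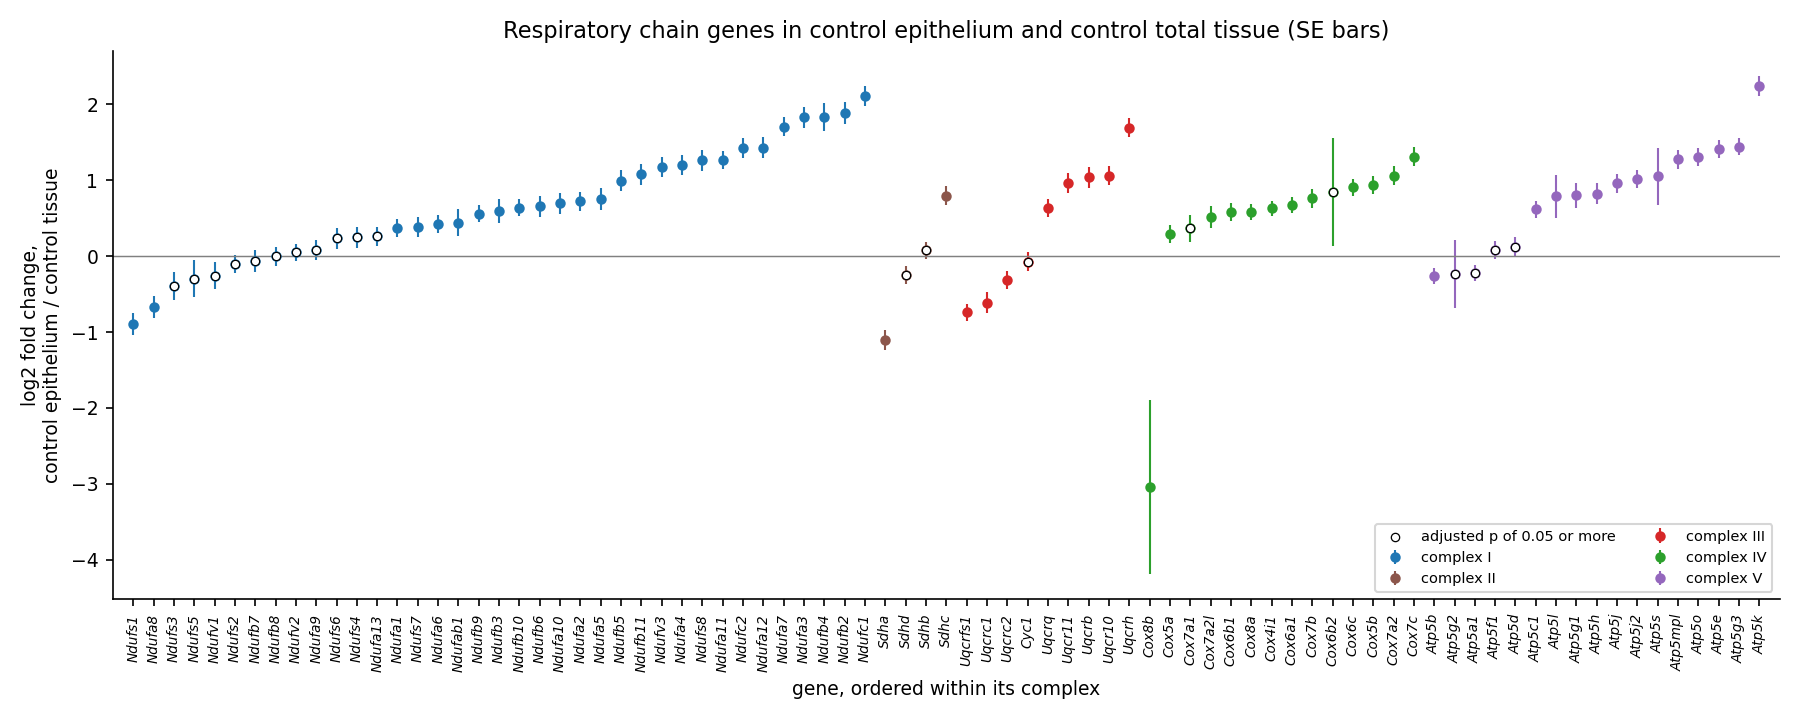
Log2 fold change of control epithelium over control total tissue (y axis) for the 81 tested members, ordered within their complex (x axis), with bars of 1 SE. Open points have an adjusted p of 0.05 or more; 53 members lie above 0 and 8 below among the filled points, with Atp5k highest at 2.24.

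Isoforms of complex IV that are known from muscle, brown fat, testis or low oxygen were scarce. Cox4i2 had 3 counts over all epithelial libraries and 32 over all tissue libraries, against 56450 and 85822 for its partner Cox4i1. Cox6a2 had 2 and 3 counts (Cox6a1 20757 and 32953), Cox7b2 8 and 1 (Cox7b 25396 and 35154), Cox8c 4 and 0 (Cox8a 16363 and 25928), and Ndufa4l2 0 and 17 (Ndufa4 12247 and 13681). These 5 were below the count filter in both preparations, and Cox6b2 (92 and 168 counts, Cox6b1 15254 and 25272) and Cox8b (12 and 245) were below it in epithelium. Cox7a1 was the exception, with 1438 and 3246 counts and reads in 20 of 20 libraries of each preparation (Cox7a2 24684 and 29082). Cox8b was lower in control epithelium (log2 −3.05 ± 1.15, adjusted p = 0.0210), a call resting on 8 counts in the epithelial controls. The call was lost with limma voom and when the shallow libraries were left out (adjusted p up to 0.108). It was also lost in 3 of 20 fits without 1 library (−3.94 to −2.61). These were the fits without epithelial control litter 2 of day 3, tissue control litter 1 of day 3 or tissue control litter 2 of day 14. Beside these isoforms, Ucp1, the uncoupling protein of brown fat, had 0 counts in tissue and 9 in epithelium. Ckm, a creatine kinase of striated muscle, had 874 counts in tissue and 2 in epithelium. Other striated muscle markers went both ways. Acta1 (641 and 194), Mylpf (69 and 29), Myl1 (48 and 9) and Mb (11 and 7) also had more in tissue. Myh4 (40 and 52), Myh2 (23 and 64), Myh1 (22 and 44), Tnnt3 (5 and 10) and Tnnc2 (0 and 1) had fewer. Of the other brown fat markers, Adrb3 (154 and 11), Dio2 (57 and 19) and Cidea (22 and 10) had more in tissue. Elovl3 had fewer (4 and 10).

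Genes that serve the chain without being part of it passed in small numbers in these comparisons. Assembly factors had no gene called in any comparison with T.mu, with 19 of the 20 complex I factors tested. Of 20 genes of the Krebs cycle and pyruvate dehydrogenase, 1 rose in epithelium in the mean over days, Cs, citrate synthase (0.43 ± 0.13, adjusted p = 0.0486). Of 15 glycolytic genes 3 rose there: Gapdh (0.70, adjusted p = 0.0229), Gpi1 (0.53, adjusted p = 0.0402) and Aldoa (0.48, adjusted p = 0.0444). In tissue the hexokinase gene Hk2 was higher at day 14 (1.23 ± 0.24, adjusted p = 0.00176) and at day 48 (1.13 ± 0.20, adjusted p = 0.000283), Ldha, lactate dehydrogenase A, was higher at day 14 (0.60, adjusted p = 0.0475) and Pfkl, a phosphofructokinase, was lower at day 48 (−0.75, adjusted p = 0.0155). Gpd2, the mitochondrial glycerol phosphate dehydrogenase, was higher at day 48 (0.74, adjusted p = 0.0379). Among 77 mitochondrial ribosomal protein genes, Mrpl52 fell in epithelium at day 14 (−1.04 ± 0.26, adjusted p = 0.0371), and of 24 genes for carriers and import Tomm7, a small subunit of the outer membrane translocase, fell (−1.02 ± 0.24, adjusted p = 0.0221). At day 48 in tissue 3 mitochondrial ribosomal protein genes fell, Mrps28 (−1.57), Mrpl36 (−1.23) and Mrpl28 (−0.92), with adjusted p of 0.0164, 0.0234 and 0.0391, and Chchd10, a protein of the intermembrane space, fell (−1.04 ± 0.19, adjusted p = 0.000329).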

How the data were processed

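The authors deposited raw read counts per gene, a table of whole numbers per the file headers, for 20 epithelial and 20 tissue libraries of a 3′ digital gene expression protocol, per the labels' protocols. Reads were handled with STAR and Subread, per the submitters' processing notes; their versions, the genome build, the annotation, the strand setting and whether molecular identifiers were collapsed are not given in the sources used here. Of the counts of 20 or less, 69.8% were even. The row that is not a mouse gene held 0.389% of all counts and was left out. Symbols, transcript length and GC content came from GENCODE M21, which matched 45229 of 45792 gene IDs.

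Genes were filtered with filterByExpr (minimum count 10, minimum total 15), scaled with TMM and fitted in edgeR 4.0.16 (R 4.3.3, limma 3.58.1) by the quasi-likelihood method, with 1 fit per preparation over 6 groups of day and inoculum, and 1 fit over all 40 libraries for comparisons between preparations. P-values were adjusted over all genes tested (Benjamini-Hochberg, threshold 0.05). The alternatives were RLE scaling, leaving out ribosomal RNA, Lars2 and mitochondrially encoded genes, no filter, DESeq2 1.42.0, limma voom, counts halved, leaving out libraries under 400000 counts, the litter as a block, the block with a correction for GC content and length, the libraries of a comparison alone, and leaving out each library. For the fit over all 40 libraries the block was day, inoculum and litter number together. It treats an epithelial and a tissue library of the same number as the same animal, which the labels do not state. On simulated counts for the mean over days, 86 of 100 genes changed by 1 on the log2 scale were recovered in epithelium among 10119 genes, and 89 of 100 in tissue among 11696, with 11 and 5 false calls. For the difference between preparations 58 of 100 were recovered among 11834 genes, with 7 false calls. The changed genes were drawn from those at or above the median count, with the same change on every day. No effect of GC content, length, RNA quality or litter was put into the simulated counts. Comparisons of a single day were not simulated. The recovered and false calls therefore hold for that simpler setting alone.

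The labels state that a number marks a litter, so the numbers pair the arms. Deviations from the group means of same-litter pairs had a median correlation of 0.0262 in epithelium (−0.0824 to 0.186, 10 pairs) and 0.00865 in tissue (−0.103 to 0.162), against −0.015 and −0.00186 for different litters.

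Members and gene lists were chosen with earlier results of these data known. Named genes were members past the threshold, the 3 highest and 3 lowest in each mean over days, fixed subunits of each complex, isoforms with their partners, and the extremes of control epithelium against tissue. Ndufa2, Ndufs3, Ndufs7, Ndufs8, Ndufv3, Uqcrc2, Uqcrq, Uqcrh and Atp5d in epithelium were added after their values had been seen. One member is not reported here by name. Replicate libraries differed by more than counting noise (chi-square per degree of freedom 2.75 to 61.3), so none was counted as a duplicate.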

Additional observations from a re-analysis of the deposited data

Results flagged for a closer look

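The T.mu effect on Uqcrc1 differed between the preparations by 0.99 on the log2 scale (0.88 in epithelium and −0.07 in tissue, adjusted p = 0.00517, edgeR interaction term over 40 libraries), and over the 40 fits without 1 library each it ran from 0.88 to 1.15 and passed in all 40. The T.mu effect on Uqcr11 differed between the days in tissue (0.11, 0.36 and −1.03 at days 3, 14 and 48, adjusted p = 0.0175). It was not called without libraries under 400000 counts or with the litter block and the correction for GC content and length, and over the fits without 1 library the number of members called ran from 0 to 7. At day 48 the arms also differed in the second index sequence of the sample name, which cannot be told apart from T.mu there.

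In 2 of 60 tests (15 measures in each of the 4 groups of 4 libraries) a value lay far from the other 3, where chance gives about 1 in 20. In tissue controls of day 48 the complex II sum of litter 2 was 1382 CPM and the others lay at 1274 to 1283 CPM. In tissue T.mu libraries of day 48 the complex I sum of litter 4 was 4196 CPM and the others lay at 5196 to 5312 CPM.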

How the results depend on the processing

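Counts of members called, with the value reported first, moved as follows. Shares of all genes called were taken from the fit reported first alone. Counts under an alternative, here and above, stand without such a share and cannot be read as particular to the members. Epithelium at day 3 (1) gave 0 with limma voom, with counts halved, without libraries under 400000 counts and with only the libraries of that comparison. Epithelium at day 14 (1) gave 4 with DESeq2, 2 with limma voom, 2 without shallow libraries, 3 with the litter block, 2 with the block and the correction for GC content and length, and 17 with only its own libraries. The epithelial mean (5) gave 10 with DESeq2, 8 with counts halved, 8 with the litter block, 1 without day 14 and 2 without day 48. Tissue at day 14 (0) gave 1 with the litter block. Tissue at day 48 (4) gave 7 without the filter, and 1 each with limma voom, without shallow libraries, with the block and correction, and with only its own libraries. The difference between days in tissue (1) gave 2 without the filter, 5 with DESeq2, 2 with limma voom, 2 with counts halved, 2 with the litter block, and 0 without shallow libraries or with the block and correction. The difference between preparations (1) gave 3 with RLE scaling, 7 with DESeq2, 3 with limma voom, 3 with counts halved and 0 without shallow libraries. The cause was not tested. The litter block changed no other call of a comparison with T.mu that the text names. In control epithelium against tissue the block for day, inoculum and litter number gave 50 members higher and 7 lower. Cox5a and Atp5l lost their calls with it, as Atp5b did.

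Medians moved too. Epithelium at day 14 (−0.37) was at −0.10 with the block and correction. Tissue at day 14 (0.28) was at 0.19 with RLE scaling, 0.19 with DESeq2, 0.18 without shallow libraries and 0.16 with the block and correction. The tissue mean (0.01) was at −0.13 without day 14, an alternative chosen after seeing the data, as were the means without each other day. Control epithelium against tissue (0.64) was at 0.89 with RLE scaling, 0.89 with DESeq2, 0.41 without the filter and −0.022 with the block and correction. Under that correction, chosen for this comparison after seeing the data, 42 of 81 members were negative there, against 18 with the block alone, and among the members the text or the list of fixed subunits names these 12 turned negative: Ndufa1 (−1.34), Ndufa4 (−0.029), Uqcr11 (−0.45), Cox4i1 (−0.056), Cox5a (−0.82), Cox6a1 (−0.35), Cox6b1 (−0.60), Cox6c (−0.022), Cox7a2 (−0.021), Cox8a (−0.52), Atp5e (−0.21) and Atp5l (−0.60).

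Leaving out 1 library at a time gave 0 to 2 members in epithelium at day 3, 0 in all 6 fits at day 14, 0 at day 48, 2 to 13 in the mean and 0 for the difference between days. In tissue it gave 0 at day 3, 0 to 4 at day 14, 1 to 4 at day 48, 0 in the mean and 0 to 7 for the difference between days. The difference between preparations ran from 1 to 5 and the control comparison from 56 to 63. The members' medians ran from −0.09 to 0.18, −0.47 to −0.25, −0.04 to 0.05 and −0.15 to −0.06 in epithelium (days 3, 14 and 48 and the mean), from −0.08 to −0.03, 0.18 to 0.35, −0.28 to −0.19 and −0.04 to 0.04 in tissue, from −0.13 to −0.02 for the difference between preparations, and from 0.60 to 0.77 for the control comparison. Cox7c at day 14 passed in 0 of 6 such fits and in 8 of 10 alternatives. Uqcrc1 in the epithelial mean passed in 20 of 20 and 12 of 12, and Uqcr11 at day 48 in 8 of 8 and 9 of 10. Of the other members called at day 48, Ndufa7 and Atp5d passed in 1 of 8 and Atp5e in 0 of 8.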
